A study of Homo sapiens with 18 samples.

Results

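The comparison described here is the interaction between UPF1 siRNA and the synthetic androgen R1881 in LNCaP cells, an established androgen-responsive line of human prostate adenocarcinoma. For each gene it is the log2 R1881 response after UPF1 siRNA (R1881 against vehicle) minus the log2 R1881 response after control siRNA. A positive value means that the ratio of R1881 to vehicle was larger after UPF1 siRNA, and a negative value that it was smaller. Its members were all genes that passed a filter on low counts, 15390 of the 60649 genes in the file. Cells were transfected with a pool of siRNAs against UPF1 or with a non-targeting control pool and were moved the next day to medium deprived of androgen. At 48 h after transfection they received 5 nM R1881 or ethanol as vehicle, and they were collected 48 h later. Ribosomal RNA was removed and total RNA was sequenced in 12 libraries, 3 in each of 4 groups: control siRNA with vehicle, control siRNA with R1881, UPF1 siRNA with vehicle and UPF1 siRNA with R1881. Another siRNA pool, against RCOR1, contributed 6 more libraries to the estimate of the spread and a side comparison. Androgen was therefore absent from all vehicle groups for the days before collection, each target was hit with 1 pool, and the libraries are biological triplicates of 1 cell line. Libraries are numbered 1 to 3 within a group in the order of deposit, and equal numbers in different groups do not mark a pair.

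Androgens act on transcription: in prostate cells they raise genes of the secretory luminal programme such as the kallikreins, while other genes fall. In LNCaP cells androgen also acts on proliferation, and strong androgen exposure slows the cell cycle. UPF1, an RNA helicase, is the central factor of nonsense-mediated decay (NMD). Through NMD, cells destroy transcripts whose stop codon lies well upstream of an exon junction. UPF1 also acts in the decay of histone mRNA. An interaction asks whether the androgen response of a gene is of the same size with and without UPF1, whatever each factor does alone.

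Totals of the 12 libraries ran from 10299607 to 17338235 counts. UPF1 mRNA itself (NMD helicase; chr19:18831938-18868236, GRCh38) stood at 123, 155 and 126 CPM (counts per 1e+06 counts, scaled) after control siRNA in vehicle and at 164, 141 and 143 CPM in R1881. After UPF1 siRNA it stood at 20.5, 22 and 25.9 CPM in vehicle and 26.8, 26.5 and 25.5 CPM in R1881, so the siRNA arms did not overlap. The fall was alike with and without androgen, by log2 -2.56 ± 0.12 and -2.51 ± 0.11 (± SE), and the interaction of UPF1 was 0.05 ± 0.15 (adjusted p = 0.89). All 9 luminal markers checked were present in every library, from EPCAM at 42.5 to 66.3 CPM to KLK3 at 225 to 3971 CPM. Of 23 markers of other cell types, several, among them PTPRC, CD3E, CDH5, TP63, HBB and HBA1, had 0 counts in all 12 libraries. Another 5 had counts in all 12 libraries and passed the filter: VWF (2343 counts in total), ACTA2 (1336), COL1A1 (1188), COL3A1 (715) and KRT14 (402). Of those, KRT14 had a higher and ACTA2 a lower response, and the summed level of the list was 25.5 to 31.6 CPM in control vehicle, 27.5 to 34.5 CPM in control R1881, 48 to 53.8 CPM in UPF1 vehicle and 33.1 to 38.2 CPM in UPF1 R1881, and its part in the results was not tested.

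Libraries within a group differed in composition. Libraries 1 and 2 of UPF1 siRNA with R1881 held fewer reads from AT-rich transcripts: over the 2444 tested genes with a GC content below 40%, their median deviation from the mean of all libraries was -0.63 and -0.44 (log2), against 0.08 in library 3 of that group. Library 1 of control R1881 and library 2 of control vehicle were also low, at -0.32 each. These last 2 had the lowest sample weights in limma-voom (0.239 and 0.328, against 0.922 and 2.98 for libraries 1 and 2 of UPF1 R1881), and the interaction was called in 815 genes without the former and in 222 without the latter. The nuclear RNA MALAT1 was at 3761 and 4588 CPM in UPF1 R1881 libraries 1 and 2 and between 10829.5 and 35087 CPM in the other 10. The median interaction was -0.57 for genes below 40% GC and 0.10 for genes at 55% or more, while over all genes it was 0.003. A fit without UPF1 R1881 libraries 1 and 2 leaves 1 library of that group, which is assumed to vary like the other groups, and it called 60 genes in all. Of 75 called genes taken by the naming rule or after their values were seen, 27 kept their call in it, among them SLITRK3, APLN, WNT5A, EMP2, EMP1, CDKN2B, EGR1, DUSP5, SDCBP2, BNIP5, CEACAM6, FOS, KLF4, NDRG1, ERRFI1, AZGP1, OPRK1, FEN1, GDF15, AGR2, SAT1, SMS, ACTA2, S100P, HBEGF and HES1. The others did not pass the threshold in that fit, whether or not this is repeated beside them. What part library composition has in the results was not tested.

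**Figure D1:**
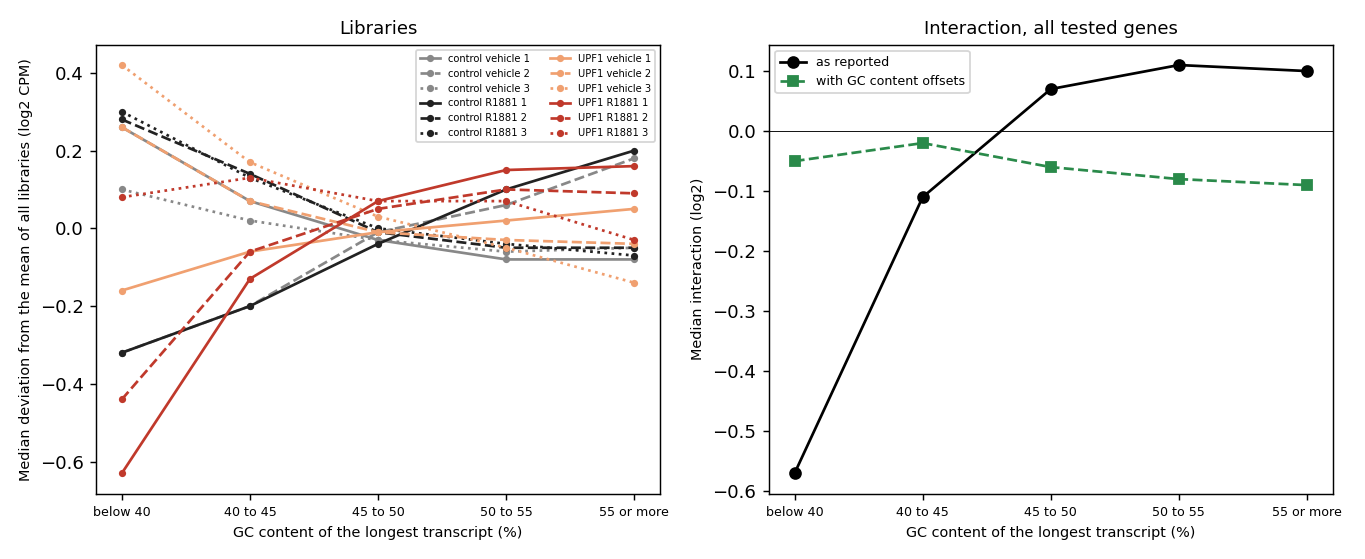
Left: median deviation of each of the 12 libraries from the mean of all libraries (log2 CPM), by GC content of the longest transcript in 5 classes; lines are libraries, coloured by group. Right: median interaction of all tested genes in the same classes, as reported and with a per-library correction for GC content. UPF1 R1881 libraries 1 and 2 lie at -0.63 and -0.44 in the class below 40% GC, and the median interaction there moves from -0.57 to -0.05 with the correction.

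The androgen response differed between the siRNA arms in 419 of 15390 genes, 2.72% (edgeR's quasi-likelihood F test, Benjamini-Hochberg adjusted p below 0.05). The response was higher after UPF1 siRNA in 208 genes (1.35%) and lower in 211 (1.37%). By comparison, R1881 itself changed 5801 genes (37.7%) after control siRNA and 6405 genes (41.6%) after UPF1 siRNA. Called interactions were of moderate size, with a median of 0.73 among those higher and -0.90 among those lower, and 145 (50 higher, 95 lower) differed at least 2-fold. Protein-coding genes made up 191 of those higher and 200 of those lower. Of the 419, 416 kept their direction in every one of 20 alternative analyses that tested them (a filter at a mean of 2 CPM gave a value in the same direction for 385), 124 were called in each of the 12 fits that left out 1 library, and 51 were called in every alternative. The count itself depended on the libraries and on the scaling: it was 185 without library 3 of control R1881 and 1166 without library 3 of UPF1 R1881, and with library sizes alone as scaling 75.2% of 569 calls were higher, against 49.6% here.

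The 211 genes with a lower response had mostly been raised by R1881 in control cells. R1881 raised 164 of them after control siRNA, 36 were not called and 11 fell, with a median response of 1.09. After UPF1 siRNA the same 211 genes had a median response of 0.09, and 83 rose, 60 were not called and 68 fell. In the absence of androgen UPF1 siRNA had itself raised 163 of the 211, with a median of 0.84. The 208 genes with a higher response had mostly been lowered by R1881 in control cells. R1881 lowered 132 of them after control siRNA (median -0.52) and 47 after UPF1 siRNA (median 0.14), while UPF1 siRNA lowered 132 of them in vehicle (median -0.48). These contrasts share libraries with the interaction, so the counts describe the called genes and are not separate evidence.

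**Figure D2:**
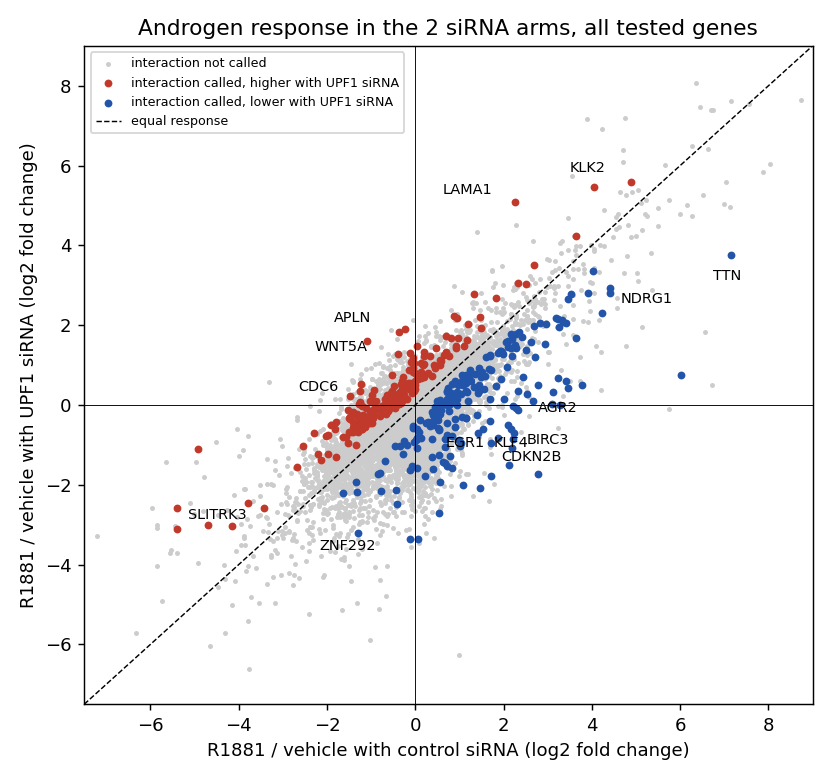
R1881 response after control siRNA (x axis) against R1881 response after UPF1 siRNA (y axis), both as log2 fold change, 1 point per tested gene; red and blue points are the 208 and 211 called interactions and the dashed line marks equal responses. Blue genes such as AGR2 (2.54 against 0.27) lie mostly right of 0 and below the line, red genes such as CDC6 (-1.25 against 0.08) mostly left of 0 and above it.

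The smallest adjusted p of all genes belonged to AGR2 (chr7:16791811-16833433), a protein disulfide isomerase of the endoplasmic reticulum (ER) found in secretory epithelium. Its level was 7.22, 7.01 and 7.79 CPM in control vehicle and 40.8, 43.9 and 42.9 CPM in control R1881. After UPF1 siRNA it was 54.7, 54.3 and 53.9 CPM in vehicle and 67.4, 57.4 and 72 CPM in R1881. The 3 control vehicle libraries were thus the only low ones, and the vehicle and R1881 libraries did not overlap in either arm. R1881 raised AGR2 by log2 2.54 ± 0.11 after control siRNA and by 0.27 ± 0.094 after UPF1 siRNA, an interaction of -2.26 ± 0.14 (adjusted p = 5.6e-07), which is a 4.8-fold smaller ratio. UPF1 siRNA alone raised it by 2.89 ± 0.11 in vehicle.

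GDF15, a stress-induced cytokine of the TGF-beta superfamily, had the same arrangement of levels. It was at 171, 209 and 185 CPM in control vehicle and 683, 594 and 555 CPM in control R1881, but at 1069, 903 and 691 CPM in UPF1 vehicle and 1085, 966 and 882 CPM in UPF1 R1881. The 2 UPF1 groups overlapped, the control groups did not. Its response was 1.7 ± 0.14 after control siRNA and 0.14 ± 0.14 after UPF1 siRNA, the latter not called (adjusted p = 0.45), with an interaction of -1.56 ± 0.2 (adjusted p = 0.00055). S100P, a calcium-binding protein, was named after its values were seen. It stood at 4.94 ± 0.86 CPM (mean ± SD, n = 3) in control vehicle and at 22.8 ± 0.27, 22.3 ± 3.3 and 21.8 ± 3.1 CPM in control R1881, UPF1 vehicle and UPF1 R1881, with an interaction of -2.24 ± 0.2. The tetraspan membrane protein EMP1 rose from 0.234 ± 0.13 to 3.49 ± 0.75 CPM with R1881 in control cells and stood at 3 ± 0.86 and 4.25 ± 0.16 CPM after UPF1 siRNA (interaction -3.29 ± 0.42). Its size rests on 10 counts in all in control vehicle. SDCBP2, a PDZ-domain scaffold, was at 0.702 ± 0.16 and 3.59 ± 0.48 CPM after control siRNA and at 3.9 ± 1.1 and 3.58 ± 0.45 CPM after UPF1 siRNA (-2.44 ± 0.31). CLDN8, a claudin of tight junctions and an AT-rich transcript, was at 7.14 ± 1.8, 18.9 ± 3.7, 58.4 ± 2 and 49.3 ± 5.4 CPM in control vehicle, control R1881, UPF1 vehicle and UPF1 R1881, with an interaction of -1.65 ± 0.25; without UPF1 R1881 libraries 1 and 2 its adjusted p was 0.058.

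In 34 genes (0.221% of those tested) the androgen response was called in opposite directions in the 2 arms, and the interaction was called in each of them. 22 rose with R1881 after control siRNA and fell with it after UPF1 siRNA, and the other 12 did the reverse. Among the 22 was CDKN2B (chr9:22002903-22009363), which encodes the cyclin-dependent kinase inhibitor p15. It was at 5.37, 5.06 and 4.49 CPM in control vehicle and rose to 14.1, 18.5 and 16.5 CPM with R1881. In UPF1 vehicle it was at 35.9, 35.8 and 29 CPM and it fell to 16.6, 17.5 and 18.5 CPM with R1881. Groups within each arm did not overlap, and the 2 R1881 groups did. The responses were 1.71 ± 0.17 and -0.94 ± 0.15, an interaction of -2.65 ± 0.23 (adjusted p = 2.5e-05).

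KLF4, a zinc finger transcription factor of epithelial differentiation (chr9:107484852-107490482), followed the same course. It was at 14, 11.8 and 14.6 CPM in control vehicle, 37.4, 40 and 38.8 CPM in control R1881, 73, 57.6 and 46 CPM in UPF1 vehicle and 43.1, 36.2 and 37.4 CPM in UPF1 R1881. Androgen brought both arms to a like level, from below after control siRNA (1.53 ± 0.14) and from above after UPF1 siRNA (-0.6 ± 0.13), with an interaction of -2.12 ± 0.19 (adjusted p = 2.5e-05). The genes with the steepest opposite responses were low in abundance, and control vehicle held 10 counts in all for BNIP5 and 4 for CEACAM6. BNIP5 moved from 0.243 ± 0.09 to 1.74 ± 0.46 CPM and from 1.69 ± 0.44 to 0.508 ± 0.017 CPM (interaction -4.49 ± 0.57, adjusted p = 0.00052). CEACAM6, a membrane-anchored adhesion protein, moved from 0.106 ± 0.067 to 0.465 ± 0.035 CPM and from 3.01 ± 0.63 to 1.03 ± 0.31 CPM (-3.64 ± 0.65). ITGB8, an integrin subunit with an AT-rich transcript, had an interaction of -3.54 ± 0.73 that lost its call without library 2 of control R1881, library 2 of UPF1 vehicle or library 1 of UPF1 R1881 (adjusted p up to 0.06). In the other direction DUSP9, a MAP kinase phosphatase, fell from 1.34 ± 0.22 to 0.634 ± 0.16 CPM after control siRNA and rose from 0.285 ± 0.046 to 0.868 ± 0.31 CPM after UPF1 siRNA, an interaction of 2.71 ± 0.5 (adjusted p = 0.0095, and 0.42 without UPF1 R1881 libraries 1 and 2).

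**Figure D3:**
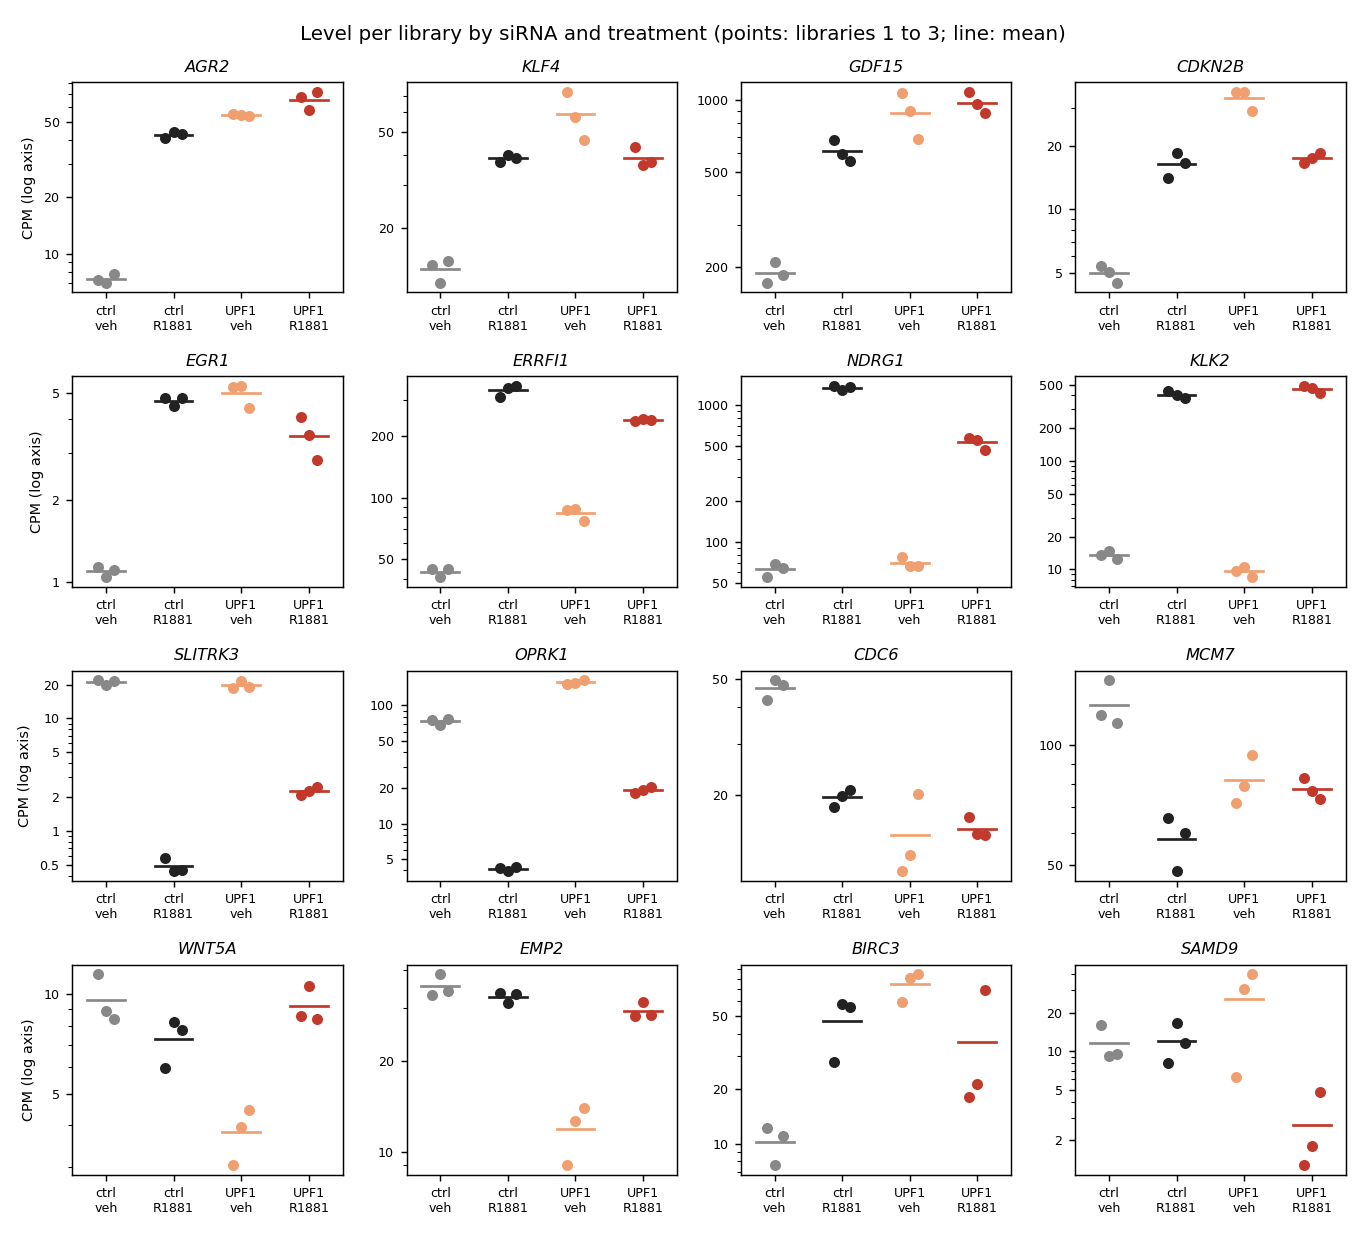
CPM (log axis) of 16 genes in each of the 12 libraries, by siRNA and treatment; points are libraries 1 to 3 and lines are means. In AGR2, KLF4, GDF15, CDKN2B and EGR1 the control vehicle libraries are the only low group; in CDC6 and MCM7 they are the only high group; in BIRC3 and SAMD9 the UPF1 R1881 libraries spread widely, with library 3 the highest.

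Immediate early genes, which growth factor signals through the ERK kinases induce within minutes, and KLF factors were represented by 26 tested members of a list of 33. 7 had a lower androgen response after UPF1 siRNA and none a higher one (26.9% called, against 2.72% of all genes), and the list's median interaction was -0.39, against 0.003 over all genes. This list and those below were chosen with earlier results of these data known, so such shares are descriptive. The 2.72% covers genes with and without an androgen response. The count of lower calls in the list was 7 or 8 in each fit without 1 library and 5 with 12 libraries only. It was 12 with the correction for GC content, a fit that called 1248 of all 15390 genes lower and 483 higher. Transcription factors of this list came first. EGR1 was at 1.13, 1.04 and 1.1 CPM in control vehicle, 4.76, 4.46 and 4.79 CPM in control R1881, 5.26, 5.29 and 4.4 CPM in UPF1 vehicle and 4.06, 3.5 and 2.81 CPM in UPF1 R1881. It rose with androgen after control siRNA (2.09 ± 0.19) and fell after UPF1 siRNA (-0.51 ± 0.16), with no overlap between treatments in either arm and an interaction of -2.6 ± 0.25 (adjusted p = 3.4e-05). FOS, a subunit of AP-1, moved from 0.585 ± 0.37 to 1.87 ± 0.73 CPM and from 4.16 ± 0.87 to 1.17 ± 0.4 CPM (-3.5 ± 0.5). The AP-1 subunit FOSL2 (-0.97 ± 0.15), the secreted matrix protein CCN1 (-0.95 ± 0.17) and the stress factor ATF3 (-0.69 ± 0.12) were lower too, and ATF3 rose in both arms. ATF3 lost its call with library sizes alone as scaling (adjusted p = 0.066).

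DUSP5, the nuclear phosphatase that switches off ERK, rose from 0.985 ± 0.18 to 9.18 ± 1.9 CPM with R1881 after control siRNA and from 1.95 ± 0.65 to 3.14 ± 0.47 CPM after UPF1 siRNA (interaction -2.56 ± 0.37, adjusted p = 0.0014). Outside the list, ERRFI1 and HBEGF also had a lower response. Both act on the epidermal growth factor receptor, but genes of its pathway were not examined as a set. ERRFI1, which binds and inhibits that receptor, was at 44.6, 40.9 and 44.9 CPM in control vehicle, 310.5, 346 and 352 CPM in control R1881, 87.3, 87.9 and 76.9 CPM in UPF1 vehicle and 238, 243 and 241 CPM in UPF1 R1881. Its response was 2.95 ± 0.075 against 1.52 ± 0.071, an interaction of -1.43 ± 0.099 (adjusted p = 1.3e-06), and the 4 groups did not overlap. HBEGF, a ligand of the receptor, was named after its values were seen. It rose from 5.45 ± 0.94 to 8.67 ± 1.1 CPM after control siRNA and fell from 33.8 ± 6.8 to 16.3 ± 1.7 CPM after UPF1 siRNA (-1.73 ± 0.23). Members that were not called included JUN (0.08), MYC (0.27), KLF5 (0.30), JUNB (-0.45) and DUSP1 (-0.71).

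The promoter window of EGR1, the 250 bases before its start at chr5:138465229-138465478 (plus strand, RefSeq, GRCh38.p14), is shown because it holds serum response elements, the sequence that serum response factor binds. Capitals mark the matches to the serum response element, of which a search on both strands found 2, at 105 and 83 bases before the start.
EGR1: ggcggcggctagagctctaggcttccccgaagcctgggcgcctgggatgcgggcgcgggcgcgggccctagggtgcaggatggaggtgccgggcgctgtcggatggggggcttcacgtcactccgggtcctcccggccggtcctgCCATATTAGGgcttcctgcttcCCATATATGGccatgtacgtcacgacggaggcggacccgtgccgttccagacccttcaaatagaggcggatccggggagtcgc
The element was present in 0.971% of 10710 tested promoters of the same length, in 3.07% of the promoters of genes with a lower response (5 of 163) and in 1.34% (2 of 149) of those with a higher response. Among the 20 immediate early and KLF genes with a window, EGR1 was the 1 that held it within those 250 bases. Sequence further from the start was not searched, so the others may hold the element there. A match is a description of the letters and does not show binding.

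Many genes of DNA replication fell less with androgen after UPF1 siRNA. Of 32 S phase genes, 13 had a higher response and none a lower one (40.6% called, against 2.72% of all genes), 29 had a positive interaction and the median was 0.45. R1881 lowered 30 of them after control siRNA (median -1.18) and 19 after UPF1 siRNA (median -0.48), and UPF1 siRNA lowered 30 in vehicle (median -1.26) and 21 in R1881 (median -0.51). Summed over the list, the level was 1872, 2109 and 1902 CPM in control vehicle and 909, 892 and 936 CPM in control R1881. After UPF1 siRNA it was 826, 945 and 1111 CPM in vehicle and 715, 709 and 695 CPM in R1881. The control vehicle libraries were the only high ones. In bulk RNA, fewer cells in S phase and less RNA per cell cannot be told apart. The count was between 6 and 15 in fits without 1 library. It was 6 without library 2 of UPF1 vehicle, 7 without library 2 of control vehicle or library 1 of UPF1 R1881, and 8 without library 2 of control R1881 or library 2 of UPF1 R1881. FEN1 alone kept its call without UPF1 R1881 libraries 1 and 2, where the median was 0.45.

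CDC6, which loads the replicative helicase onto origins, was at 42.4, 49.7 and 47.7 CPM in control vehicle and 18.2, 19.8 and 20.8 CPM in control R1881, and at 10.9, 12.4 and 20.1 CPM in UPF1 vehicle and 16.7, 14.6 and 14.5 CPM in UPF1 R1881. The UPF1 groups overlapped and the control groups did not. Its response was -1.25 ± 0.16 after control siRNA and 0.08 ± 0.16 after UPF1 siRNA (interaction 1.33 ± 0.23, adjusted p = 0.0055). Its partner in origin licensing CDT1 had an interaction of 0.9 ± 0.19. Subunits of the helicase followed: MCM7 (1.05 ± 0.2), MCM3 (0.79 ± 0.14), MCM5 (0.79 ± 0.2), MCM4 (0.78 ± 0.17), GINS2 (1.17 ± 0.22) and GINS1 (0.76 ± 0.18). MCM7 was at 126 ± 17 and 58 ± 8.9 CPM without and with androgen after control siRNA and at 81.7 ± 12 and 77.6 ± 5 CPM after UPF1 siRNA. FEN1, the flap endonuclease of lagging strand synthesis, was at 47.8, 63.3 and 51.1 CPM in control vehicle, 30.1, 29.5 and 28.6 CPM in control R1881, 20.5, 20.1 and 24.3 CPM in UPF1 vehicle and 22.9, 23.7 and 23.1 CPM in UPF1 R1881 (0.98 ± 0.14, adjusted p = 0.0014, and 0.033 without UPF1 R1881 libraries 1 and 2). The sliding clamp PCNA (0.61 ± 0.15), the chromatin assembly subunit CHAF1B (0.88 ± 0.17) and the transcription factor E2F1 (0.85 ± 0.19) were also among the 13. MCM2 (0.47), MCM6 (0.43), RRM2 (0.03) and CCNE2 (-0.84) were not called.

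2 promoters of this group are shown because many S phase genes are known to carry E2F sites there. Both windows hold 250 bases before the start on the minus strand (RefSeq, GRCh38.p14): MCM7 at chr7:100101398-100101647 and GINS2 at chr16:85688955-85689204. Capitals mark TTTCCCGC read on the other strand, 187 bases before the start of MCM7 and 31 bases before that of GINS2.
MCM7: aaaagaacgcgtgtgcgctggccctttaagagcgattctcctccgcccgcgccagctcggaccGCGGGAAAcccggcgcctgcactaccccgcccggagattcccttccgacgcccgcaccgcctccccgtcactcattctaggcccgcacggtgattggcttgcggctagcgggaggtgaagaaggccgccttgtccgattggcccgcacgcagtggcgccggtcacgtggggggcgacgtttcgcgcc
GINS2: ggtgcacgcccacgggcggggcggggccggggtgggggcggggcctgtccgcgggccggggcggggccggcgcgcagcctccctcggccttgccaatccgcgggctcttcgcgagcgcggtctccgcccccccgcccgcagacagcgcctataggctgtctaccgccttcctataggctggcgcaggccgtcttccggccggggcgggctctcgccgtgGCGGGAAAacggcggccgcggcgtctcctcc
TTTCCCGC or TTTGGCGC on either strand was found in 12 of 27 S phase promoters (44.4%) and in 3.07% of all 10710 tested promoters. The share was 9.4% (14 of 149) among genes with a higher response and 1.84% (3 of 163) among those with a lower response. The genes with a higher response include 13 S phase genes, and the letters alone do not show a bound site.

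Mitosis genes differed in few cases. Of 32, CCNB1 (0.95 ± 0.18, adjusted p = 0.0097), the mitotic cyclin, and AURKA (0.8 ± 0.16), a spindle kinase, had a higher response and none a lower one (6.25%, against 2.72% of all genes), and the median was -0.08, or 0.07 with library sizes alone as scaling. With no count filter, where 1320 of 31265 genes were called, the list held 2 higher and 8 lower calls. It held 4 and 5 with limma-voom and sample weights, where 4388 of 15390 genes were called. Without library 1 of UPF1 vehicle, where 406 of 15722 genes were called, it held 2 and 2. CCNB1 was at 86 ± 6.5 and 36.9 ± 1.7 CPM after control siRNA and at 35 ± 8.2 and 28.9 ± 2.3 CPM after UPF1 siRNA. R1881 lowered 29 mitosis genes after control siRNA (median -1.52) and 30 after UPF1 siRNA (median -1.87). AURKA lost its call without library 3 of control R1881 or library 2 of UPF1 vehicle (adjusted p up to 0.053). Whether the S phase and mitosis lists differ was not tested. Of 44 tested replication-dependent histone genes, H2BC15 (1.1 ± 0.2), H2BC12 (0.71 ± 0.17) and H2BC21 (0.54 ± 0.11) had a higher response (6.82%), with a list median of 0.27. Reads of near-identical histone genes may be shared between copies. H2BC12 was not called in 8 of 12 fits without 1 library (adjusted p up to 0.13). The list held 9 calls without library 1 of control R1881, where 815 of 15763 genes were called.

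**Figure D4:**
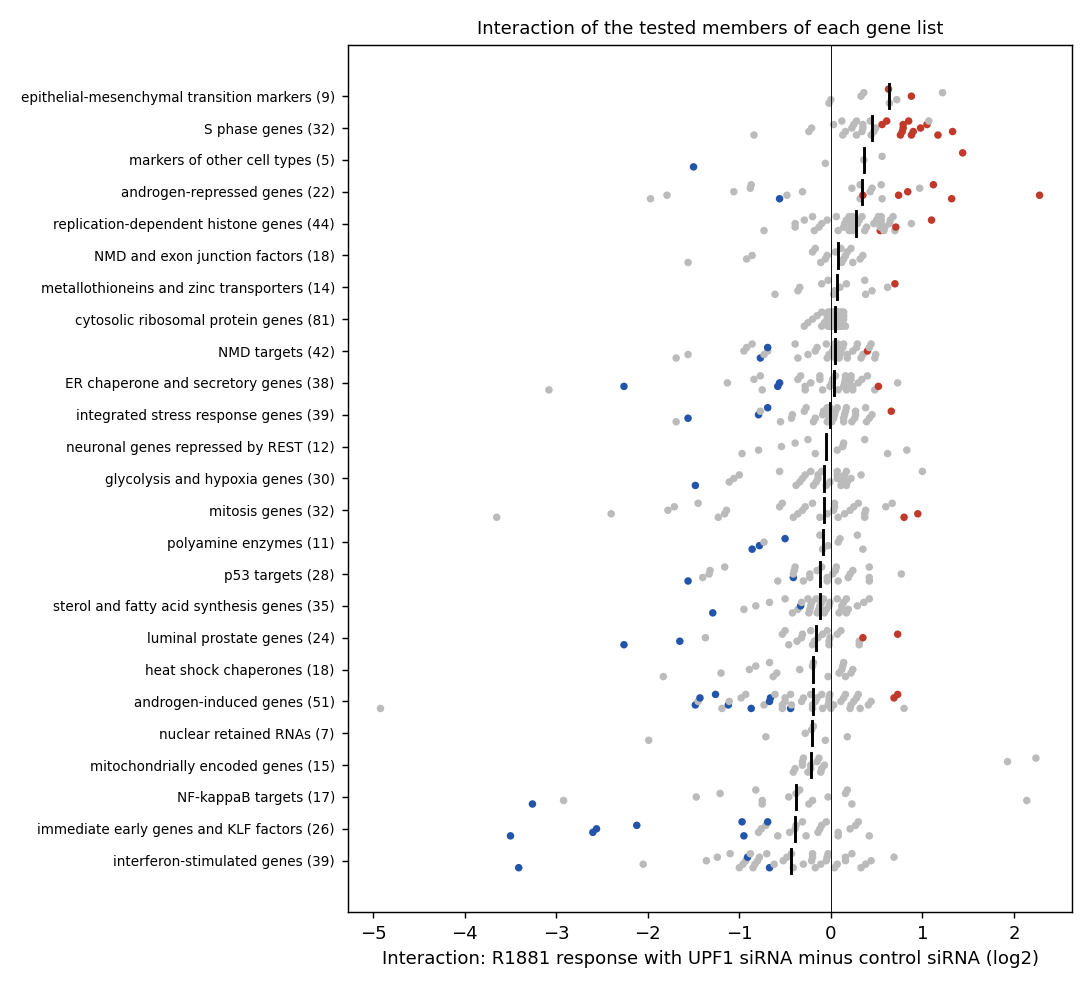
Interaction (log2) of every tested member of each of 25 gene lists, ordered by list median (black bars), with the number tested in parentheses; red and blue points are called higher and lower, grey points are not called. S phase genes lie mostly right of 0 (median 0.45, 13 red), immediate early genes mostly left of it (median -0.39, 7 blue), and most lists centre near 0.

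The androgen-induced list held genes that rose strongly in both arms. Of its 51 genes, R1881 raised 48 after control siRNA (median 2.57) and 46 after UPF1 siRNA (median 2.46). 8 had a lower and 2 a higher response after UPF1 siRNA (19.6% called, against 2.72% of all genes), and the median interaction was -0.20, or -0.06 with library sizes alone as scaling. Between 4 and 10 were called lower in fits without 1 library, the fewest without library 2 of control R1881. With the correction for GC content 20 were called lower and 3 higher, in a fit that called 1248 of all 15390 genes lower and 483 higher. Among lower members NDRG1, a differentiation- and hypoxia-induced cytoplasmic protein, was at 55.2, 69 and 64.6 CPM in control vehicle and 1379, 1294 and 1348 CPM in control R1881. After UPF1 siRNA it was at 77.9, 66.3 and 66.2 and 574, 557 and 472 CPM. The vehicle groups overlapped, while all UPF1 R1881 libraries were below all control R1881 libraries. Its responses were 4.41 ± 0.11 and 2.93 ± 0.1, an interaction of -1.48 ± 0.14 (adjusted p = 3.4e-05), or a 2.79-fold smaller ratio. AZGP1, a secreted zinc-binding glycoprotein, rose from 17.2 ± 2.9 to 175 ± 26 CPM and from 18.3 ± 2 to 77.2 ± 5.2 CPM (-1.26 ± 0.19, adjusted p = 0.0019). The metalloreductase STEAP1 (-0.87 ± 0.19), prostatic acid phosphatase ACP3 (-0.67 ± 0.091), the methyltransferase GNMT (-0.66 ± 0.16) and the lipid phosphatase PLPP1 (-0.44 ± 0.088) were also lower, and ERRFI1 above is on this list too. UAP1, an enzyme of UDP-sugar synthesis, was at -1.12 ± 0.25 but lost its call in 7 of 12 fits without 1 library (adjusted p up to 0.072).

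KLK2, a kallikrein protease and 1 of the 2 members with a higher response, was at 13.7 ± 1.2 and 407 ± 29 CPM after control siRNA and 9.57 ± 1 and 459 ± 37 CPM after UPF1 siRNA (0.69 ± 0.14, adjusted p = 0.015). It lost the call without library 3 of control R1881 (adjusted p = 0.082), and KLK2 and KLK3 are similar enough to share reads. The marker genes of androgen action were not called. KLK3 (prostate-specific antigen) was at 0.28 ± 0.15 (adjusted p = 0.31), TMPRSS2, a membrane protease, at -0.22 ± 0.1 (adjusted p = 0.24) and FKBP5, a receptor co-chaperone, at -0.43 ± 0.15 (adjusted p = 0.16). TMPRSS2 and FKBP5 were called lower in 2 of 20 alternatives each. FKBP5 rose from 59.4 ± 3.6 to 2195 ± 338 CPM after control siRNA and from 51.3 ± 6.1 to 1413 ± 43 CPM after UPF1 siRNA.

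Androgen-repressed genes were more often called higher than lower. Of 22 tested, 6 had a higher response and 1 a lower one (31.8% called, against 2.72% of all genes), with a median of 0.34. SLITRK3, a neuronal adhesion protein (chr3:165186720-165197109), was at 21.9, 19.8 and 21.5 CPM in control vehicle and 0.577, 0.438 and 0.452 CPM in control R1881. After UPF1 siRNA it was at 18.5, 21.3 and 19.1 CPM in vehicle and 2.09, 2.24 and 2.47 CPM in R1881. Vehicle levels overlapped, and with androgen every UPF1 library lay above every control library. The responses were -5.4 ± 0.16 and -3.12 ± 0.13, an interaction of 2.28 ± 0.22 (adjusted p = 4.1e-05). OPRK1, the kappa opioid receptor, was at 73.7 ± 4 and 4.12 ± 0.16 CPM after control siRNA and 157 ± 6 and 19.2 ± 1.1 CPM after UPF1 siRNA (1.12 ± 0.11, adjusted p = 4.1e-05). IL1RN, the interleukin-1 receptor antagonist (1.32 ± 0.22), the decarboxylase DDC (0.84 ± 0.17) and the desaturase SCD5 (0.74 ± 0.17) were higher too. The 1 lower call was SEMA6A, a semaphorin (-0.56 ± 0.12). No member of the list was called lower with library sizes alone, with no count filter, with 12 libraries only, or without library 2 of control vehicle, library 1 or 2 of control R1881, library 2 of UPF1 vehicle or library 2 of UPF1 R1881.

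Outside the androgen lists, the steepest positive interactions included secreted ligands and a matrix protein. LAMA1, the laminin alpha-1 chain, had counts of 34 and 156 in all in control vehicle and R1881, and 13 and 474 in UPF1 vehicle and R1881. Its level was 0.795, 1.04 and 0.642 and then 4.69, 3.22 and 4.25 CPM after control siRNA, and 0.526, 0.158 and 0.217 and then 11.1, 11 and 10.7 CPM after UPF1 siRNA. All 4 groups were apart and the interaction was 2.84 ± 0.49 (adjusted p = 0.0054, and 0.052 without UPF1 R1881 libraries 1 and 2). WNT5A, EMP2 and APLN rose with androgen after UPF1 siRNA from a level that UPF1 siRNA had lowered. WNT5A, a ligand of noncanonical Wnt signalling, was at 11.5, 8.88 and 8.43 and 5.98, 8.26 and 7.77 CPM in control vehicle and R1881 and at 3.03, 3.95 and 4.47 and 8.59, 10.6 and 8.42 CPM in UPF1 vehicle and R1881 (interaction 1.67 ± 0.25, adjusted p = 0.002). EMP2, a tetraspan protein related to EMP1, was at 33, 38.8 and 34.2 and 33.6, 31.2 and 33.3 CPM and at 9.01, 12.6 and 14 and 28.3, 31.3 and 28.4 CPM (1.42 ± 0.18, adjusted p = 4e-04). In both genes UPF1 vehicle was the only low group. The peptide ligand APLN moved alike (2.19 ± 0.32, adjusted p = 0.0017). EMP2 and EMP1, members of 1 family, had interactions of opposite sign.

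The remaining genes of the 12 steepest positive ones were less stable. The amine oxidase AOC1 (2.81 ± 0.69) rested on 4 counts in control R1881, all in library 1 (0.288 CPM, and 0 in libraries 2 and 3). Without that library its fitted value was 6.47, which depends on the prior count, and its range over fits without 1 library was 2.28 to 6.47. MYB (1.69 ± 0.42), a transcription factor, rested on 12 counts there. KRT14, a keratin of basal cells (1.44 ± 0.35), the RNA gene PSLNR (1.42 ± 0.29), CCDC163 (1.43 ± 0.33) and the clone-named gene CH17-3B23.3 (1.43 ± 0.37) each lost the call in 7 to 10 of 12 fits without 1 library, as did AOC1 and MYB, with adjusted p up to 0.16. For these 6 genes library 2 of control vehicle, and for all but PSLNR library 2 of control R1881, were among those whose omission ended the call. RNF165 (1.6 ± 0.33), a ubiquitin ligase, lost it without library 3 of control R1881 or library 2 of UPF1 R1881 (adjusted p up to 0.06).

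Of the 12 steepest negative interactions taken by the naming rule (mean of at least 2 CPM, androgen response called in an arm), 6 belonged to AT-rich transcripts (GC below 40%): SAMD9, an interferon-induced antiviral factor, BIRC3, an inhibitor of apoptosis, the zinc finger protein ZNF292, the fucosyltransferase FUT9, the vessel growth factor ANGPT2 and the GTPase regulator ARAP2. TTN, the giant muscle protein titin, stood at 44.1% GC. Of 15203 tested genes with a known GC content, 2444 lay below 40%. In that class 32 genes (1.31%) were called, 5 higher and 27 lower, against 2.72% of all genes. SAMD9 was at 16.1, 9.16 and 9.44 CPM in control vehicle, 8.07, 16.6 and 11.6 CPM in control R1881, 6.32, 30.8 and 39.9 CPM in UPF1 vehicle and 1.28, 1.82 and 4.76 CPM in UPF1 R1881. Library 1 of UPF1 vehicle was below every control library and library 3 of UPF1 R1881 was the highest of its group. BIRC3 was at 59.8, 80.9 and 84.5 CPM in UPF1 vehicle and at 18, 21.3 and 68.9 CPM in UPF1 R1881, where library 3 lay among the vehicle libraries. Their interactions were -3.41 ± 0.83 and -3.26 ± 0.61, and without UPF1 R1881 libraries 1 and 2 they were -2.46 and -2.31 (adjusted p = 0.46 and 0.086). All 7 genes lost their call in that fit, where none of the 32 called genes below 40% GC and 59 of all 419 (14.1%) kept it. With the correction for GC content all 7 were called, from -3.39 in TTN to -2.36 in ARAP2. SAMD9, ZNF292, ARAP2 and FUT9 each lost the call in 8 of 12 fits without 1 library and TTN in 7, always including library 2 of control vehicle, libraries 2 and 3 of control R1881, library 2 of UPF1 vehicle and libraries 1 and 2 of UPF1 R1881.

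**Figure D5:**
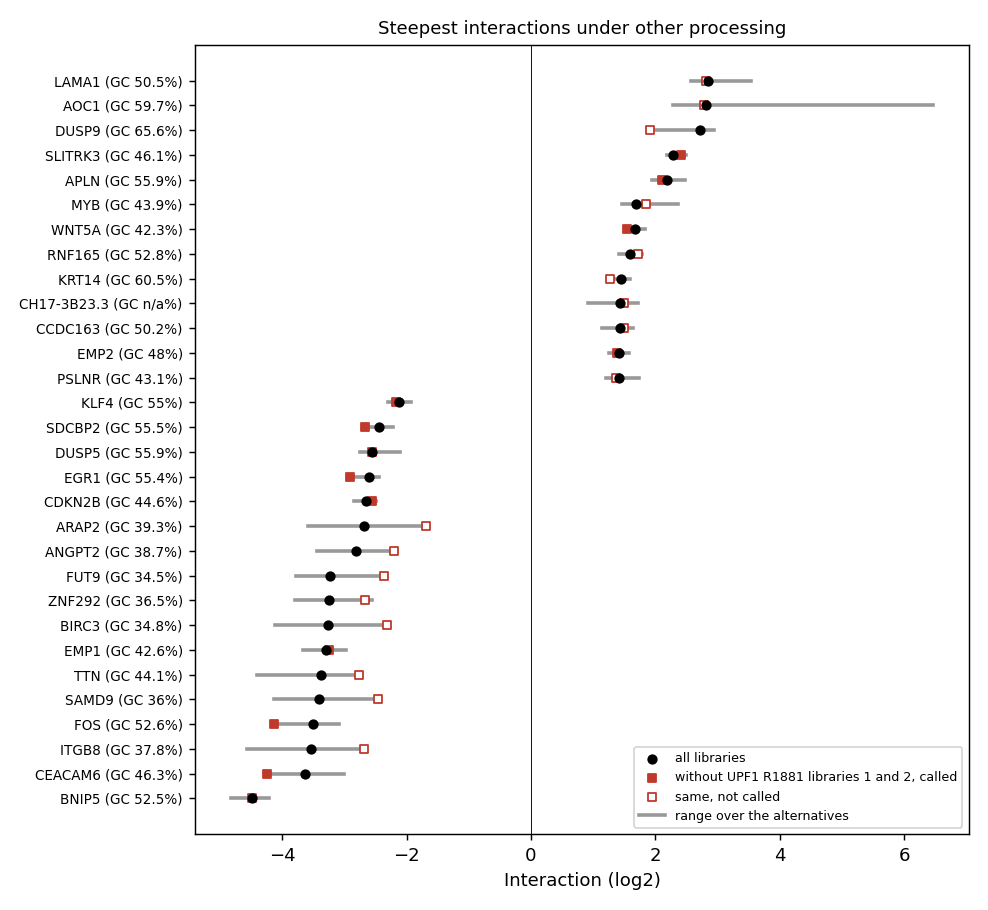
Interaction (log2) of the genes with the steepest called values, with the GC content of each; black points are all libraries, grey bars the range over 20 alternatives, and squares the fit without UPF1 R1881 libraries 1 and 2 (filled: called). SAMD9, BIRC3, ZNF292, FUT9, ANGPT2 and ARAP2, all below 40% GC, move towards 0 and lose the call, while CDKN2B, EGR1, DUSP5, KLF4, EMP1 and SLITRK3 keep the call. Genes above 40% GC lose it too, among them DUSP9 (65.6%), KRT14 (60.5%), LAMA1 (50.5%) and TTN (44.1%).

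Polyamines, which prostate cells make and secrete in large amounts, had 11 tested enzymes. 3 had a lower response and none a higher one (27.3% called, against 2.72% of all genes, median -0.09, or 0.06 with library sizes alone as scaling). SAT1, the acetyltransferase that starts polyamine breakdown, was at 157, 171 and 184 CPM in control vehicle, 839, 820.4 and 849 CPM in control R1881, 403, 372 and 369.9 CPM in UPF1 vehicle and 1035, 1048 and 1011 CPM in UPF1 R1881. It rose in both arms and all 4 groups were apart (2.29 ± 0.066 against 1.43 ± 0.064, interaction -0.86 ± 0.089, adjusted p = 6.5e-05). Spermine synthase SMS rose from 110.2 ± 6.4 to 786 ± 64 CPM and from 119 ± 7.9 to 491 ± 16 CPM (-0.78 ± 0.11, adjusted p = 0.00085). ODC1, the ornithine decarboxylase that opens the pathway, was at -0.5 ± 0.12 and lost the call in 8 of 12 fits without 1 library (adjusted p up to 0.096).

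Among 38 ER chaperone and secretory genes, which androgen raised in both arms (medians 0.92 and 0.97), 3 had a lower and 1 a higher response (10.5%, against 2.72% of all genes, median 0.03). AGR2 is described above. XBP1 (-0.58 ± 0.096) and ERN1 (-0.56 ± 0.087), the transcription factor and the kinase of 1 branch of the unfolded protein response, were lower, and PDIA4, a disulfide isomerase, was higher (0.52 ± 0.096). ERN1 was at 46.5 ± 0.18 and 170.4 ± 3.1 CPM after control siRNA and at 113 ± 1.4 and 279 ± 5.4 CPM after UPF1 siRNA, so its level rose with each factor and was highest with both. With library sizes alone as scaling XBP1 (-0.43, adjusted p = 0.072) and ERN1 (-0.42, adjusted p = 0.068) were not called, and the list held 2 higher and 1 lower. ERN1 also lost its call with no count filter. The call of XBP1 was lost with 12 libraries only and with the correction for GC content (-0.42, adjusted p = 0.18), and that of PDIA4 without library 3 of control R1881 (adjusted p = 0.056). Of 39 integrated stress response genes, GDF15, NUPR1 (-0.79 ± 0.16) and ATF3 were lower and STC2, a secreted glycoprotein, was higher (0.66 ± 0.11), with a median of -0.01, or 0.14 with library sizes alone as scaling (10.3%). NUPR1 and ATF3 lost their calls with that scaling (adjusted p = 0.071 and 0.066), where the list held 2 higher and 1 lower, and with 12 libraries only. With the correction for GC content the list held 3 higher and 11 lower, where 483 of all 15390 genes were called higher and 1248 lower.

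Of 18 NMD and exon junction factors none was called (edgeR; 3 at an unadjusted p under 0.05; also none with DESeq2, and 7 with limma-voom and sample weights; 0 to 3 in fits without 1 library and 3 with the correction for GC content), with a median of 0.08, or -0.05 with the correction for GC content. Over all genes, limma-voom with sample weights called 4388 of 15390 and the correction for GC content 1731 (483 higher, 1248 lower). Without library 3 of UPF1 R1881, 1166 of 15798 were called. In the reported fit the lowest values of the list were the core factor UPF2 (-1.56 ± 0.55), the UPF1 kinase SMG1 (-0.92 ± 0.49) and UPF3B (-0.86 ± 0.44), none of them called. Of 42 NMD targets, SRSF2, a splicing factor with an NMD-regulated transcript, was higher (0.4 ± 0.096) and MAP3K14 (-0.77 ± 0.19) and ATF3 were lower (7.14%, against 2.72% of all genes), with a median of 0.05. The list was not raised as a whole by UPF1 siRNA. In vehicle 11 members rose and 15 fell with it (median -0.04), and in R1881 11 rose and 12 fell (median -0.11). SRSF2 itself was lowered by UPF1 siRNA, by log2 -0.64 in vehicle and -0.24 in R1881. SRSF2 and MAP3K14 lost their calls in 8 and 9 of 12 fits without 1 library (adjusted p up to 0.12 and 0.11). The list held 1 to 7 lower calls in such fits, 7 without library 3 of UPF1 R1881, and 4 higher and 8 lower with the correction for GC content. With library sizes alone it held 2 higher and none lower.

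Interferon-stimulated genes were raised by UPF1 siRNA in both treatments, 32 of 39 in vehicle (median 1.09) and 22 in R1881 (median 0.51). Their summed level was 2035, 1828 and 1765 CPM in UPF1 vehicle and 1489.6, 1509 and 1597 CPM in UPF1 R1881, against 961 to 1012 CPM in control vehicle and 913 to 1029 CPM in control R1881. The UPF1 R1881 libraries were all below the UPF1 vehicle libraries, and the control groups overlapped. 3 members had a lower response and none a higher one (7.69%, against 2.72% of all genes, median -0.43). The count ran from 0 without library 2 of control R1881 to 7 without library 1 of that group and 8 without library 3 of UPF1 R1881, and it was also 8 with DESeq2 and with the correction for GC content. Over all genes the lower calls in these fits were 75, 323, 830, 361 and 1248, in the same order. RSAD2, an antiviral enzyme, was at 14.5, 14.7 and 14.9 CPM in control vehicle and 13.6, 15.8 and 14.1 CPM in control R1881, and fell from 113, 97.5 and 80.9 to 46.7, 51 and 55.5 CPM after UPF1 siRNA (-0.91 ± 0.18, adjusted p = 0.012). Its call was lost without library 2 of control R1881 (adjusted p = 0.06). HERC6, a HECT-domain protein, was at -0.67 ± 0.14, a call lost without library 2 of control vehicle or of control R1881, and SAMD9 is described above. Of 9 tested markers of epithelial-mesenchymal transition, the matrix proteins FN1 (0.63 ± 0.13) and THBS1 (0.88 ± 0.17) were higher (22.2%, against 2.72% of all genes, median 0.63), and FN1 lost its call without library 3 of control R1881 or library 1 of UPF1 R1881. NF-kappaB targets had 1 call, BIRC3, among 17 (5.88%, median -0.38).

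The response after UPF1 siRNA was also compared directly with that after RCOR1 siRNA, which hits a subunit of the CoREST repressor complex. 260 genes differed (1.69%), 156 higher (1.01%) and 104 lower (0.676%) with UPF1 siRNA, and both this test and the interaction use the UPF1 libraries. For EGR1 the UPF1 response minus the RCOR1 response was -2.21 ± 0.25 (adjusted p = 0.00035) and for CDKN2B it was -1.89 ± 0.22 (adjusted p = 0.00052). Responses after UPF1 siRNA exceeded those after RCOR1 siRNA in LAMA1 by 3.36 ± 0.46, KLK2 by 1.77 ± 0.14, WNT5A by 1.42 ± 0.25 and KLK3 by 1.13 ± 0.15. The difference was not called for KLF4 (-0.4 ± 0.19, adjusted p = 0.22), AGR2 (-0.4 ± 0.14, adjusted p = 0.12), GDF15 (0.11 ± 0.2, adjusted p = 0.75) or SLITRK3 (0.51 ± 0.2, adjusted p = 0.23). Side by side, the RCOR1 and UPF1 interactions, which share the control libraries (the former called in 0.767% of genes), were -1.86 and -2.26 for AGR2, -1.72 and -2.12 for KLF4, -1.67 and -1.56 for GDF15, -0.39 and -2.6 for EGR1 and -1.08 and 0.69 for KLK2. For KLK3 they were -0.85 and 0.28, the former called and the latter not. The count of 260 was 85 without library 2 and 1636 without library 3 of UPF1 R1881.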

How the data were processed

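RNA-seq libraries of transfected LNCaP cells (500 ng of total RNA, ribosomal RNA removed) were deposited as raw gene counts, 1 table of 60649 genes. Per the submitters' processing notes, bcl2fastq 2.20, STAR 2.7.9a, featureCounts of Subread 1.6.4 and GRCh38.p7 were used. The strand setting, the annotation release and any filter on reads were not given in the sources used here. Hence overlapping and antisense genes may share reads. Deposited counts of 6 groups of 3 libraries were fitted with edgeR 4.0.16 in R 4.3.3 (TMM scaling, filterByExpr, quasi-likelihood F test, 1 mean per group, Benjamini-Hochberg threshold 0.05). All 18 libraries shared 1 estimate of the spread, with 12 residual degrees of freedom before moderation. The SE is the log2 fold change divided by the root of F. CPM values are scaled by TMM. Coordinates and GC content came from GENCODE 29, and promoters from RefSeq.

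The alternatives were library sizes alone, DESeq2 1.42.0, limma 3.58.1 with voom sample weights, other low-count filters, 12 libraries, offsets for GC content (loess) and the omission of libraries. Named genes were the 12 largest called interactions in each direction with a mean of at least 2 CPM and an androgen response called in an arm, the 8 largest with opposite called responses, up to 4 per list, and 8 set genes; list members outside this rule are named only to account for a list's calls or as uncalled examples chosen after their values were seen. The 140 symbols used by more than 1 gene were not named. Members and lists were chosen with earlier results of these data known. The method was tested on simulated data. Some results of the lists are not reported here.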

Additional observations from a re-analysis of the deposited data

Results flagged for a closer look

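The androgen response differed between UPF1 and control siRNA in 419 genes, and between UPF1 and RCOR1 siRNA in 260 genes, each by a test of the difference itself. Among named genes with called responses of opposite direction in the UPF1 and control arms, the interaction was -4.49 for BNIP5, -3.64 for CEACAM6, -3.54 for ITGB8, -3.5 for FOS, 2.71 for DUSP9, -2.65 for CDKN2B, -2.6 for EGR1 and -2.12 for KLF4. Against RCOR1 siRNA, the response after UPF1 siRNA was higher by 3.36 in LAMA1, 1.81 in PSLNR, 1.71 in CCDC163, 1.56 in APLN, 1.42 in WNT5A and 0.82 in EMP2 (log2). The same difference was -3.81 in SAMD9, -3.5 in FUT9, -2.26 in ANGPT2, -2.21 in EGR1 and -1.89 in CDKN2B. SAMD9, FUT9, ANGPT2 and ITGB8 have transcripts below 40% GC, the class that was low in UPF1 R1881 libraries 1 and 2, and the part of this in their values was not tested.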

How the results depend on the processing

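Of the 419 called interactions, 416 kept their direction in every alternative that tested them (385 had a value in the same direction with a mean of at least 2 CPM). The count was 639 (361 lower) with DESeq2, 4388 (1676 higher, 2712 lower) with limma-voom and sample weights, 1320 (1093 lower) with no filter beyond 1 count, 177 (108 higher, 69 lower) with 12 libraries only, 1731 (483 higher, 1248 lower) with GC content offsets and 60 (22 higher, 38 lower) without UPF1 R1881 libraries 1 and 2. Library sizes alone gave 428 higher of 569 (75.2%) and moved the median of all genes to 0.153, a mean of at least 2 CPM gave 60.8% higher of 441, and 145 calls (50 higher, 95 lower) were at least 2-fold. The share of higher calls was 49.6% in the reported fit, 38.2% with limma-voom, 17.2% without the filter, 61% with 12 libraries, 27.9% with GC offsets and 36.7% without those 2 libraries. Leaving out 1 library gave 185 to 1166 calls, with 76 to 492 higher and 75 to 830 lower. Without UPF1 R1881 libraries 1 and 2, R1881 after UPF1 siRNA called 2924 genes and UPF1 siRNA in R1881 1904, and the latter count was 8526 with limma-voom. UPF1 against RCOR1 responses differed in 845 genes with DESeq2, 6044 with limma-voom, 1708 without the filter, 1132 with GC offsets, 23 without the 2 libraries, and 85 to 1636 without 1 library. Of the named results, the interaction of UPF1 itself was the only one to reverse, from 0.05 to -0.16 with GC offsets, to -0.05 without library 2 of control vehicle and to -0.01 without library 1 of UPF1 vehicle, in a range of -0.05 to 0.2 without 1 library. The causes were not tested. No paired analysis was possible because replicate numbers follow the order of deposit and pair no libraries across groups. Depth limits genes of a few counts, such as AOC1 with 4 counts in control R1881, and CEACAM6 with 4 and EMP1 and BNIP5 with 10 each in control vehicle.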

Other observations

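Noncoding RNAs were a small share of the called genes: 6 lincRNAs were higher and 1 lower of 732 tested (0.956%), and 5 antisense RNAs were higher and 2 lower of 845 (0.828%). The following were chosen after their values were seen. CTBP1-AS, antisense to the corepressor gene CTBP1, rose with R1881 by 2.69 after control siRNA and by 3.5 after UPF1 siRNA (interaction 0.81). LINC00839 rose by 0.66 after UPF1 siRNA and was at 0.03, not called, after control siRNA (interaction 0.63). DRAIC fell with androgen in both arms, by 1.26 after control siRNA and 0.55 after UPF1 siRNA, and UPF1 siRNA raised it by 1.5 in vehicle and 2.21 in R1881.

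HES1, the transcriptional repressor downstream of Notch, was also chosen after its values were seen. It was at 1.51 ± 0.3 and 6.05 ± 0.47 CPM without and with R1881 after control siRNA, and 4.11 ± 1.6 and 4.5 ± 1.5 CPM after UPF1 siRNA, an interaction of -1.87 ± 0.38 (adjusted p = 0.015), which lost its call without library 2 of control vehicle (adjusted p = 0.055). ACTA2, a smooth muscle actin listed as a marker of other cells, was at 2.88 ± 0.35 and 19 ± 2.4 CPM without and with R1881 after control siRNA, and 3.4 ± 0.34 and 7.79 ± 0.71 CPM after UPF1 siRNA (-1.5 ± 0.23, adjusted p = 0.0025). Of 35 sterol and fatty acid genes, ACSL3 (-1.29 ± 0.31) and SCD (-0.33 ± 0.085) were lower (5.71%, against 2.72% of all genes). They lost the call in 8 and 11 of 12 fits without 1 library. Of 28 p53 targets TNFRSF10B (-0.41 ± 0.098), lost in 11, and GDF15 were lower (7.14%). The metallothionein MT2A (0.7 ± 0.18) was higher among 14 metallothionein and zinc transporter genes (7.14%) and lost its call in 8 such fits.

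No interaction was called among 81 cytosolic ribosomal protein genes with edgeR (0 at an unadjusted p under 0.05) or DESeq2, although UPF1 siRNA lowered 71 of them in vehicle and 67 in R1881. With sample weights limma-voom called 4 of them higher and 1 lower. Over all 15390 genes limma-voom called 4388, and the fit with GC content offsets 1731. In the reported edgeR fit and with DESeq2, no interaction was called among 15 mitochondrially encoded genes (2 at an unadjusted p under 0.05; 4 lower with limma-voom, 1 lower with GC content offsets and without library 1 of UPF1 vehicle), 18 heat shock chaperones (4 at an unadjusted p under 0.05; 4 higher and 6 lower with limma-voom, 1 higher with library sizes alone, and 2 lower with no count filter, with GC content offsets and without library 3 of UPF1 R1881) or 12 neuronal genes repressed by REST (1 at an unadjusted p under 0.05; 2 lower with limma-voom and 1 lower with no count filter).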
